A study of Mus musculus with 6 samples.

Results

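A set of 53 genes of the skeletal muscle programme was followed across mouse gonadal cells on 6 single-colour (Cy5) microarrays. The members were listed by name, and the probe of each was found through its gene symbol. The array carried 52 of the 53 among 19084 genes, without a probe named for Myh7, and 46 of the 52 were bright enough to be tested, among 15459 tested genes. They comprised 8 myogenic regulators, 29 sarcomere genes (5 embryonic, 6 slow, 8 fast and 10 shared between fibre types), 6 genes of calcium release, 5 of the neuromuscular junction, 3 of energy supply and 2 of the muscle cell surface.

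All animals were of the ICR strain, and each of the 3 groups was measured on 2 arrays. The GSC colony arrays held RNA from colonies picked after 7 days in 5% O2, grown from the whole cell suspension of testes of 80 newborn to P2 mice. The CD49f+ sorted arrays held RNA of P2 testis cells of 100 mice, taken by magnetic sorting for CD49f and not cultured, for which the labels write physiological hypoxia. The PGC colony arrays held RNA from colonies of whole gonadal cell suspensions of 67 embryos at E11.5, grown for 7 days in 5% O2 like the GSC colonies. Both kinds of colony stood on laminin at 200 ng/cm2 with epidermal growth factor at 10 ng/ml. In the labels GSC stands for Glandular Stem Cells, and the cells behind PGC are called primordial germ cells. Animals were pooled, and no label tells whether arrays of the same group came from separate preparations. The p-values therefore reflect the spread between arrays alone, which may be technical. Stage and tissue differ together between the PGC and GSC colonies, and so do sorting and culture between sorted cells and colonies, so their effects cannot be told apart. Between PGC colonies and sorted cells, stage and tissue differ as well.

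Skeletal muscle forms when myogenic regulators of the basic helix-loop-helix family, Myf5, Myod1, Myog and Myf6, bind E-boxes in DNA and, with Mef2 proteins, switch on the genes of the contractile apparatus. Precursors marked by Pax3 and Pax7 exit the cell cycle, fuse into myotubes and first use embryonic and perinatal forms of myosin, actin and troponin, which slow and fast adult forms later replace. In the gonad none of this is the main programme: the contractile cells of the testis are smooth muscle-like peritubular cells.

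Levels are normalized log2 intensities, and each array's 30th percentile, at 7.82, served as the level below which a gene had only a bound. A difference is that between group means of log2 levels, printed ± its SE, with 2 arrays per group throughout, and p-values are Benjamini-Hochberg adjusted over all tested genes from limma. An exact test of 2 arrays against 2 cannot go below p = 0.333, so precision is limited by how few arrays there were. In bulk RNA, fewer cells of a type and less RNA per cell cannot be told apart.

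Most sarcomere genes were higher in PGC colonies than in both testicular groups. Against GSC colonies they were led by the embryonic forms of actin and myosin, the fast light chain Myl1 and skeletal actin. Against sorted cells Tnnt2, which was high in both kinds of colony, had the largest fitted difference. Of the 46 tested members, 26 were higher in PGC than in GSC colonies, 2 were lower (Myom2 and Chrnb1) and 18 did not pass. That is 60.9% of the members, where 15.1% of all tested genes passed, 7.08% higher and 7.98% lower. Members and the other lists were chosen with earlier results of these data known, so their shares do not test the sets. The members' median difference was 0.71, and that of all genes 0.01. Against CD49f+ sorted cells, 25 members were higher in PGC colonies, 2 were lower (Mef2c and Ckm) and 19 did not pass, or 58.7% beside 46% of all genes, with 22.8% higher and 23.2% lower. GSC colonies and sorted cells differed in 14 members, 5 higher and 9 lower in GSC colonies, or 30.4% beside 47.1% of all genes, with 22.5% higher and 24.5% lower. Each pair of comparisons shares the arrays of a group.

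Among the 24 tested sarcomere genes, 17 were higher and 1 lower in PGC than in GSC colonies, and 18 higher and none lower than in sorted cells, where Tnni2 and Myom2 were higher and Tcap did not pass. Acta1, Mybph, Cacng1, Atp2a1 and Cav3 reached the level of 7.82 on PGC colony arrays only and entered the test through those arrays. With either PGC colony array left out, 41 members were tested. Their median difference from GSC colonies was then 0.50 (without replicate 1) or 0.53 (without replicate 2), and that of all genes -0.01 or 0.02. With no filter on dim probes, 28 of 52 were called, beside 12% of all genes.

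**Figure D1:**
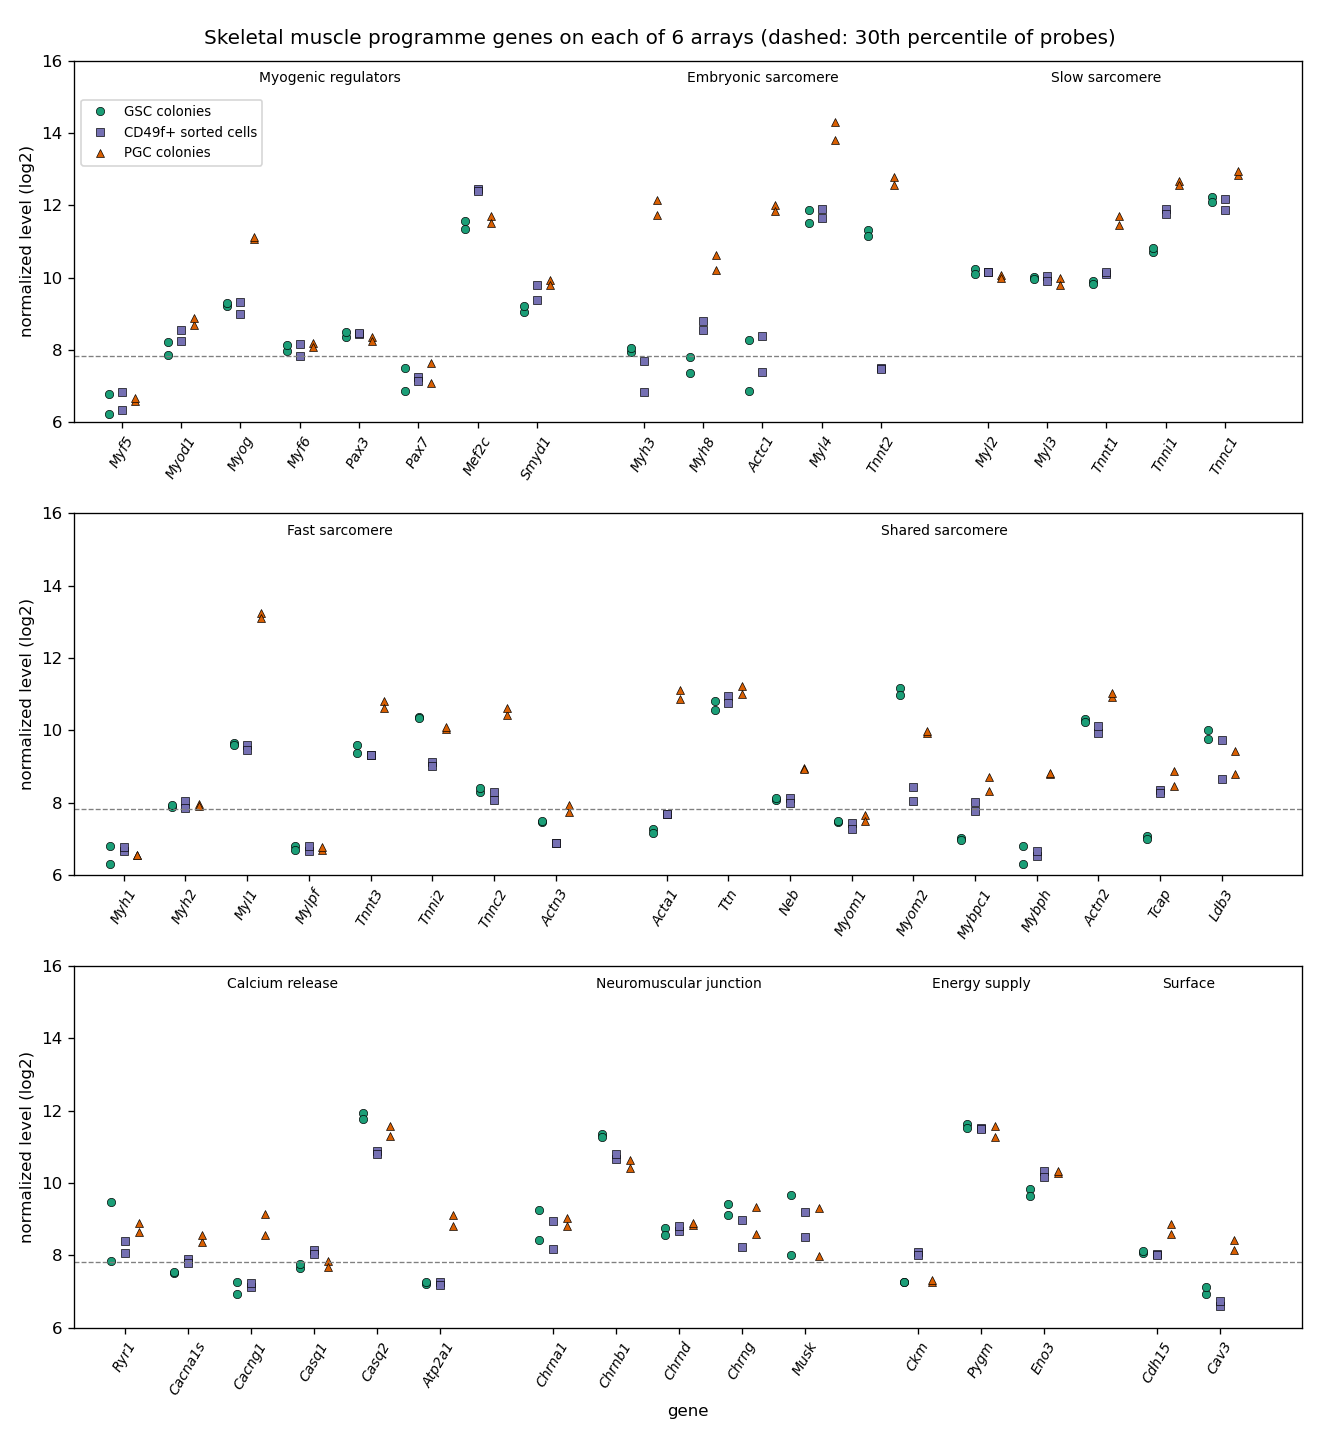
Normalized level (log2, vertical axis) of the 52 genes on each of the 6 arrays, grouped by role, with circles for GSC colonies, squares for CD49f+ sorted cells and triangles for PGC colonies; the dashed line is the 30th percentile, at 7.82. The PGC colony arrays stand above the other arrays for Myog, all 5 embryonic sarcomere genes, Myl1 and Acta1, while the neuromuscular genes are mixed.

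The sequences just upstream of 7 members are shown as examples: the myogenic factor Myog, both actins, the light chain Myl1 and the myosins Myh3 and Myh8, all higher in PGC colonies, and Myh1, which lies between these myosins and stayed dim. They are the 250 bases before the start in RefSeq's promoter table, build GRCm38.p6, each printed 5′ to 3′ on the gene's own strand. Capitals mark matches on either strand to E-box CANNTG, of which CAGCTG is the form preferred by myogenic factors, to TATAAA, and to the MEF2 site and the CArG box, the site of serum response factor. The Myog stretch lies at chr1:134289754-134290003, plus strand, that of Myh3 at chr11:67078050-67078299, plus strand, that of Myh1 at chr11:67199852-67200101, plus strand, and that of Myh8 at chr11:67276874-67277123, plus strand. The Acta1 stretch lies at chr8:123894776-123895025, minus strand, that of Actc1 at chr2:114052876-114053125, minus strand, and that of Myl1 at chr1:66945057-66945306, minus strand.
Myog: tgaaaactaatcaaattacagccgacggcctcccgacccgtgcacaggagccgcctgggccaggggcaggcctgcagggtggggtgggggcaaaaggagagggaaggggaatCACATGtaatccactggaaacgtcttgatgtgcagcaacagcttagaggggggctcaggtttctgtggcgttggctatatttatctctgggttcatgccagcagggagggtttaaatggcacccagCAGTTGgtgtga
Myh3: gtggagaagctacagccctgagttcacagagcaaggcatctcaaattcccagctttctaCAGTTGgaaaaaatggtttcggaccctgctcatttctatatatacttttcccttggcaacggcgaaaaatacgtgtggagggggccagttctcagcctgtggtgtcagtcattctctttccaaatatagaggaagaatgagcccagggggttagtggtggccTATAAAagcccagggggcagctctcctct
Myh1: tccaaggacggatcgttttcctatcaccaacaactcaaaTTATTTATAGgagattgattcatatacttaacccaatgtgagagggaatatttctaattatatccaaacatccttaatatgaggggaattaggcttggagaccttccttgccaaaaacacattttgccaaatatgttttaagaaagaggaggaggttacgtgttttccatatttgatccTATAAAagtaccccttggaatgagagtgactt
Myh8: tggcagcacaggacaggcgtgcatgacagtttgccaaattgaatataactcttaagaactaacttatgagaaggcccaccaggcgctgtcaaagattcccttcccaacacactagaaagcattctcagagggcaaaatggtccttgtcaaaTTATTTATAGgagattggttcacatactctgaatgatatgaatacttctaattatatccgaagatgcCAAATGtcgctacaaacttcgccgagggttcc
Acta1: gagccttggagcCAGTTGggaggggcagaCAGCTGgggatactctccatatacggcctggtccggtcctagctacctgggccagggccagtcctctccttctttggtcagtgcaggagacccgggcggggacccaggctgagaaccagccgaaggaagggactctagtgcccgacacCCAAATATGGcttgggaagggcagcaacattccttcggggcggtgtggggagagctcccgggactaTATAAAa
Actc1: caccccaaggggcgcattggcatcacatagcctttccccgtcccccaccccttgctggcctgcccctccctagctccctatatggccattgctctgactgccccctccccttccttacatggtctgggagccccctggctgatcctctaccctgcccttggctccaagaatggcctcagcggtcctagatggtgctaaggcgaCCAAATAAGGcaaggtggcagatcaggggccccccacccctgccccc
Myl1: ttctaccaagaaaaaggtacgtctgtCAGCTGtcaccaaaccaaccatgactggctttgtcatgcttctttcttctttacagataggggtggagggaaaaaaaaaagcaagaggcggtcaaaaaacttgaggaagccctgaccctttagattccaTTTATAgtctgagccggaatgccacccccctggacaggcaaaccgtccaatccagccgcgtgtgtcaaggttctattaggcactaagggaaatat
The Myog stretch held 2 E-boxes, and that of Myh3 held 1, which began 191 bases before the start. Acta1 and Myl1 each had 1 CAGCTG, beginning 221 and 224 bases before the start. The actin genes Acta1 and Actc1 each had 1 CArG box, beginning 73 and 47 bases before it. Myh1 and Myh8 shared a MEF2 match of identical letters, beginning 211 bases before the start in Myh1 and 99 bases before it in Myh8. A TATAAA match overlapped it on the other strand in both genes.

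Over whole windows of 300 bases, which reach 50 bases past the start, 42 of the 53 members had 49 windows among 32851 in all. CAGCTG stood in 40.8% of the member windows and in 16.3% of all windows, and any E-box, which includes it, in 79.6% and 72.3%. The CArG box stood in 12.2% and 1.63%, the MEF2 site in 8.16% and 3.19%, and TATAAA in 30.6% and 13.6%. In the 23 windows of members higher in PGC than in GSC colonies, CAGCTG stood in 47.8%, and in the 26 windows of the other members in 34.6%. The MEF2 site and the CArG box ran the other way, in 1 and 2 of the 23 windows against 3 and 4 of the 26. The other members include Myh7, which had no probe, genes too dim to test, and Chrnb1, which was lower. Windows of the same gene can overlap and count a site again, as for the CArG box of Ldb3 and the CAGCTG of Tnni1. The split is therefore not one between genes that rose and genes that did not. A match describes the letters only.

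Of the myogenic regulators, Myog was the member with the largest difference. Myog, the factor that drives differentiation into myotubes, measured 11.06 and 11.11 in PGC colonies, 9.21 and 9.29 in GSC colonies, and 9.33 and 9.00 in sorted cells. Both PGC arrays lay well above the other 4, which overlapped. The difference was 1.84 ± 0.14 from GSC colonies (limma adjusted p = 5e-04), a fold of 3.57, and 1.92 ± 0.14 from sorted cells (adjusted p = 8.9e-05).

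Myod1, a regulator that commits cells to the lineage, measured 8.68 and 8.87 on PGC arrays, 8.22 and 7.86 on GSC arrays and 8.56 and 8.24 on sorted arrays. The PGC arrays were the highest, with small gaps. Its difference of 0.73 ± 0.18 from GSC colonies passed narrowly (limma adjusted p = 0.042), a call lost in 7 of 16 alternatives, and 0.37 ± 0.18 from sorted cells did not pass (adjusted p = 0.14). Smyd1, a methyltransferase needed to assemble sarcomeres, was 0.74 ± 0.16 higher in PGC than in GSC colonies (adjusted p = 0.028, lost in 3 of 17 alternatives), with 9.93 and 9.79 against 9.05 and 9.20. Sorted cells, at 9.39 and 9.78, lay between them, and the 0.28 ± 0.16 by which PGC colonies exceeded them did not pass.

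The regulators of other steps showed no such difference. Myf5, an early determination factor, stayed under the level on all 6 arrays, between 6.22 and 6.84, and so did Pax7, the satellite cell factor, between 6.86 and 7.63. Neither was tested, and depth of signal rather than the comparison limits what can be said of them. Myf6, which acts late in muscle, lay near the level on every array, and its difference of 0.09 ± 0.14 from GSC colonies did not pass (limma adjusted p = 0.74). Pax3, the precursor factor, spanned 8.25 to 8.49 over the 6 arrays, with a difference of -0.13 ± 0.11 (adjusted p = 0.49).

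Mef2c, which cooperates with the myogenic factors and is also active in heart, vessels and blood cells, had its highest level in sorted cells. It measured 12.45 and 12.38 there, 11.69 and 11.51 in PGC colonies and 11.56 and 11.34 in GSC colonies, so that only the colony groups overlapped. PGC colonies were 0.81 lower than sorted cells (a difference of -0.81 ± 0.13, limma adjusted p = 0.0028), and GSC colonies differed by -0.96 ± 0.13 (adjusted p = 0.0013). Without normalization between arrays the difference between PGC colonies and sorted cells was -0.28 and did not pass. The other Mef2c probe gave -1.11 and -1.68 against sorted cells, and 0.57 between PGC and GSC colonies (adjusted p = 0.034), where the main probe gave 0.15 (adjusted p = 0.5).

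All 5 embryonic sarcomere genes were higher in PGC colonies than in both other groups, where 7.08% and 22.8% of all genes were higher. Myh3, the embryonic myosin heavy chain, measured 12.14 and 11.74 in PGC colonies, 7.93 and 8.04 in GSC colonies and 6.82 and 7.69 in sorted cells. Neither sorted array reached the level. The difference from GSC colonies was 3.95 ± 0.29 (limma adjusted p = 0.00047), a fold of 15.5, and PGC colonies were at least 17.3-fold higher than sorted cells (adjusted p = 4.9e-05). Here and below, "at least" sets the brighter group's mean against the higher of the dim group's own level and 7.82, where both arrays of that group lay under 7.82.

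Actc1, the cardiac actin that embryonic skeletal muscle also uses, measured 12.01 and 11.84 in PGC colonies. The GSC colony arrays read 8.27 and 6.85 and the sorted arrays 7.38 and 8.37, so in each testicular group 1 array lay under the level and the groups overlapped. The fitted difference from GSC colonies was 4.36 ± 0.50 (limma adjusted p = 0.0027) and from sorted cells 4.05 ± 0.50 (adjusted p = 0.00091). Since these rest partly on values under the level, their size is uncertain: the former ran from 3.63 to 5.04 over the alternatives. The SE was large beside a gap between the arrays of the dim groups, where the SD was 1.00 in GSC colonies and 0.70 in sorted cells, against 0.12 in PGC colonies.

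Myh8, the perinatal myosin heavy chain, measured 10.21 and 10.62 in PGC colonies, 8.56 and 8.81 in sorted cells and 7.79 and 7.35 in GSC colonies. The 3 groups did not overlap, and the GSC colony arrays were under the level. PGC colonies were at least 6.06-fold higher than GSC colonies (limma adjusted p = 0.00047) and 1.73 ± 0.21 above sorted cells (adjusted p = 0.00083), and sorted cells were at least 1.82-fold higher than GSC colonies (adjusted p = 0.0055).

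Myl4, the embryonic and atrial essential light chain, read 14.30 and 13.81 in PGC colonies, 11.51 and 11.88 in GSC colonies and 11.89 and 11.65 in sorted cells. The testicular groups overlapped, and PGC colonies exceeded them by 2.36 ± 0.21 and 2.29 ± 0.21 (limma adjusted p = 0.001 and 0.00026). Tnnt2, the cardiac troponin T that also appears in embryonic skeletal muscle, followed another order. It measured 12.55 and 12.78 in PGC colonies, 11.31 and 11.16 in GSC colonies, and 7.49 and 7.47 in sorted cells. PGC colonies were 1.43 ± 0.13 above GSC colonies (adjusted p = 0.00091), and both kinds of colony stood far above the sorted cells, by at least 28.8-fold and 10.7-fold (adjusted p = 3.9e-06 and 4.3e-06).

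**Figure D2:**
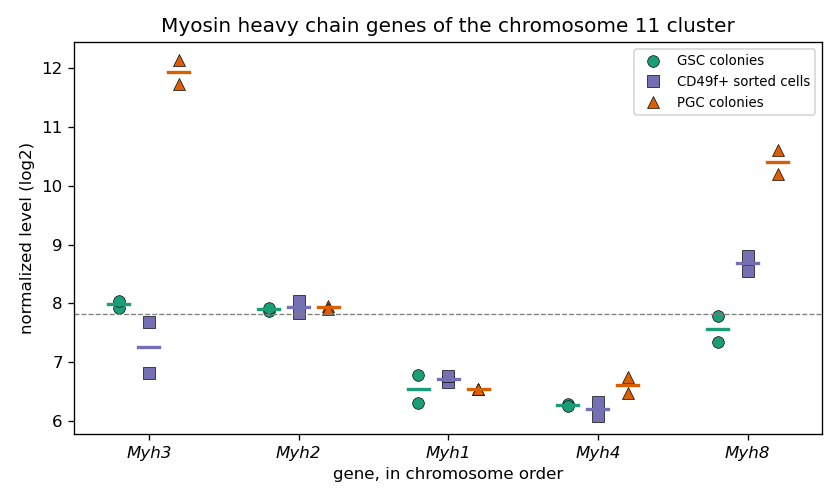
Normalized level (log2) of the 5 adjacent myosin heavy chain genes on each array, in their order along chromosome 11, with a bar at each group's mean and the 30th percentile, 7.82, as a dashed line. Myh3 and Myh8, first and last of the 5, are high on the PGC colony arrays, while Myh2, Myh1 and Myh4 between them lie from 6.08 to 8.05 on all 6 arrays.

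The embryonic and perinatal myosins lie in a cluster on chromosome 11, with the adult fast genes Myh2, Myh1 and Myh4 between them and 0 other protein-coding genes within each gap, from the order of genes in RefSeq. Myh2, of fast oxidative fibres, read 7.84 to 8.05 over all 6 arrays, close to the level of 7.82, which limits what its flat values can show. Its differences were 0.03 ± 0.12 and -0.02 ± 0.12 from GSC colonies and sorted cells (limma adjusted p = 0.89 and 0.93). Without normalization between arrays, the latter was 0.34 (adjusted p = 0.047). Myh1, of fast glycolytic fibres, was under the level on every array at 6.31 to 6.79. Myh4, the fastest form and not among the 53, was also under it, at 6.47 and 6.74 in PGC colonies and 6.08 to 6.33 elsewhere. Of these 5 genes, Myh3 and Myh8 alone were called, and Myh1 and Myh4 were too dim to test.

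Of 5 tested slow genes, 3 were higher in PGC colonies in both comparisons, where 7.08% and 22.8% of all genes were higher. Tnnt1, slow troponin T, measured 11.70 and 11.45 in PGC colonies, 9.89 and 9.83 in GSC colonies and 10.11 and 10.15 in sorted cells. No groups overlapped, and the differences were 1.71 ± 0.12 (limma adjusted p = 0.00043) and 1.44 ± 0.12 (adjusted p = 0.00018). Tnni1, slow troponin I, read 12.67 and 12.55 in PGC colonies, 11.90 and 11.76 in sorted cells and 10.70 and 10.83 in GSC colonies. The groups were again apart, with PGC colonies 1.85 ± 0.12 above GSC colonies (adjusted p = 0.00025) and 0.78 ± 0.12 above sorted cells (adjusted p = 0.0021). GSC colonies differed from sorted cells by -1.07 ± 0.12 (adjusted p = 0.00053).

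Tnnc1, the troponin C of slow and cardiac muscle, measured 12.83 and 12.94 in PGC colonies, 12.22 and 12.10 in GSC colonies and 12.16 and 11.87 in sorted cells. The testicular groups overlapped below it, and the differences were 0.72 ± 0.14 (limma adjusted p = 0.018, lost in 3 of 17 alternatives) and 0.87 ± 0.14 (adjusted p = 0.0027). The slow light chains were not called. Myl2, the regulatory chain of slow and ventricular muscle, spanned 9.98 to 10.24 over the 6 arrays, with -0.15 ± 0.11 from GSC colonies (adjusted p = 0.41). Myl3, the essential chain, spanned 9.78 to 10.04, with -0.11 ± 0.12 (adjusted p = 0.59).

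Of 5 tested fast genes, 3 were higher in PGC than in GSC colonies and 4 than in sorted cells, beside 7.08% and 22.8% of all genes. The essential light chain Myl1 had the smallest p of all members against GSC colonies. Myl1 measured 13.25 and 13.10 in PGC colonies, 9.64 and 9.59 in GSC colonies and 9.58 and 9.45 in sorted cells. Every PGC value was far above the others, and the differences were 3.56 ± 0.11 (limma adjusted p = 2.5e-05), a fold of 11.8, and 3.66 ± 0.11 (adjusted p = 5.5e-06), a fold of 12.6. The other Myl1 probe gave 2.37 and 2.68. Tnnc2, fast troponin C, read 10.41 and 10.62 in PGC colonies, 8.30 and 8.41 in GSC colonies and 8.28 and 8.07 in sorted cells, and differed by 2.15 ± 0.13 and 2.34 ± 0.13 (adjusted p = 0.00024 and 3.6e-05). The testicular groups again lay together.

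Tnnt3, fast troponin T, measured 10.81 and 10.62 in PGC colonies, 9.37 and 9.60 in GSC colonies and 9.31 on both sorted arrays. PGC colonies exceeded them by 1.23 ± 0.13 and 1.41 ± 0.13 (limma adjusted p = 0.002 and 0.00025). Tnni2, fast troponin I and a close neighbour of Tnnt3 with 1 protein-coding gene between them, had a different order. It read 10.38 and 10.33 in GSC colonies, 10.03 and 10.10 in PGC colonies and 9.12 and 9.00 in sorted cells. Both kinds of colony were above sorted cells, by 1.30 ± 0.11 and 1.01 ± 0.11 (adjusted p = 0.00016 and 0.00048), and the -0.29 ± 0.11 between PGC and GSC colonies did not pass (adjusted p = 0.13). Mylpf, the fast regulatory light chain, stayed under the level at 6.66 to 6.79, and Actn3, the fast α-actinin, reached it on 1 PGC array only, at 7.75 and 7.94 there against 7.45 and 7.49 in GSC colonies and 6.89 in sorted cells.

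Of the 9 tested sarcomere genes shared by fibre types, 6 were higher in PGC colonies in each comparison, beside 7.08% and 22.8% of all genes. Acta1 and Mybph, counted among them, entered the test through the PGC colony arrays alone. Acta1, skeletal α-actin, measured 10.87 and 11.12 in PGC colonies, 7.27 and 7.17 in GSC colonies and 7.68 and 7.69 in sorted cells. All 4 testicular arrays were under the level, so PGC colonies were at least 9.02-fold higher than each (limma adjusted p = 2.6e-05 and 8.1e-06). The difference of -0.46 ± 0.12 between GSC colonies and sorted cells lay under the level on both sides, and its call was lost in 5 of 15 alternatives.

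Mybph, a myosin-binding protein, read 8.78 and 8.81 in PGC colonies and 6.31 to 6.79 on the other 4 arrays, at least 1.97-fold higher than in each testicular group (limma adjusted p = 0.00055 and 0.00013). Mybpc1, the slow myosin-binding protein C, read 8.72 and 8.32 in PGC colonies, 8.02 and 7.76 in sorted cells and 7.01 and 6.97 in GSC colonies. It was at least 1.63-fold higher in PGC than in GSC colonies (adjusted p = 0.0022) and 0.63 ± 0.17 above sorted cells (adjusted p = 0.022, lost in 2 of 16 alternatives). The sorted array at 7.76 was under the level, so the latter difference is uncertain in size. The thin filament gene Neb, nebulin, measured 8.97 and 8.94 against 8.07 and 8.12 in GSC colonies and 8.14 and 7.99 in sorted cells, or 0.86 ± 0.11 and 0.89 ± 0.11 higher. Actn2, the α-actinin of the Z-disc, read 10.92 and 11.03 against 10.32 and 10.24 and 9.93 and 10.12, or 0.69 ± 0.12 (lost in 1 of 17 alternatives) and 0.95 ± 0.12 higher. For both genes all PGC values exceeded all others.

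Tcap, the titin cap protein, showed PGC colonies and sorted cells together above GSC colonies. It read 8.45 and 8.86 in PGC colonies, 8.35 and 8.27 in sorted cells and 7.07 and 6.99 in GSC colonies. PGC colonies were at least 1.79-fold and sorted cells at least 1.4-fold higher than GSC colonies (limma adjusted p = 0.0013 and 0.00087). Ttn, titin, read 11.22 and 10.99 in PGC colonies, 10.82 and 10.56 in GSC colonies and 10.96 and 10.76 in sorted cells, and its differences of 0.41 ± 0.15 and 0.25 ± 0.15 did not pass (adjusted p = 0.13 and 0.24). Myom1, a protein of the M-band, was under the level on all arrays, at 7.27 to 7.65.

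Myom2, another M-band protein, ran against the rest. It measured 11.16 and 10.98 in GSC colonies, 9.92 and 9.98 in PGC colonies and 8.42 and 8.03 in sorted cells. The groups were fully apart, with PGC colonies differing by -1.12 ± 0.16 from GSC colonies and 1.73 ± 0.16 from sorted cells, and GSC colonies 2.85 ± 0.16 above sorted cells (limma adjusted p = 0.0062, 0.00024 and 2.9e-05). For Ldb3, a Z-disc scaffold, the 4 probes disagreed. The brightest read 10.01 and 9.77 in GSC colonies, 8.65 and 9.74 in sorted cells and 8.80 and 9.42 in PGC colonies, and none of its differences passed. A dimmer Ldb3 probe was 0.91 higher in PGC colonies than in sorted cells (adjusted p = 0.0054), where the brightest gave -0.08. Another dimmer probe was 0.38 higher there (adjusted p = 0.047). For both dimmer probes the sorted arrays lay under the level.

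**Figure D3:**
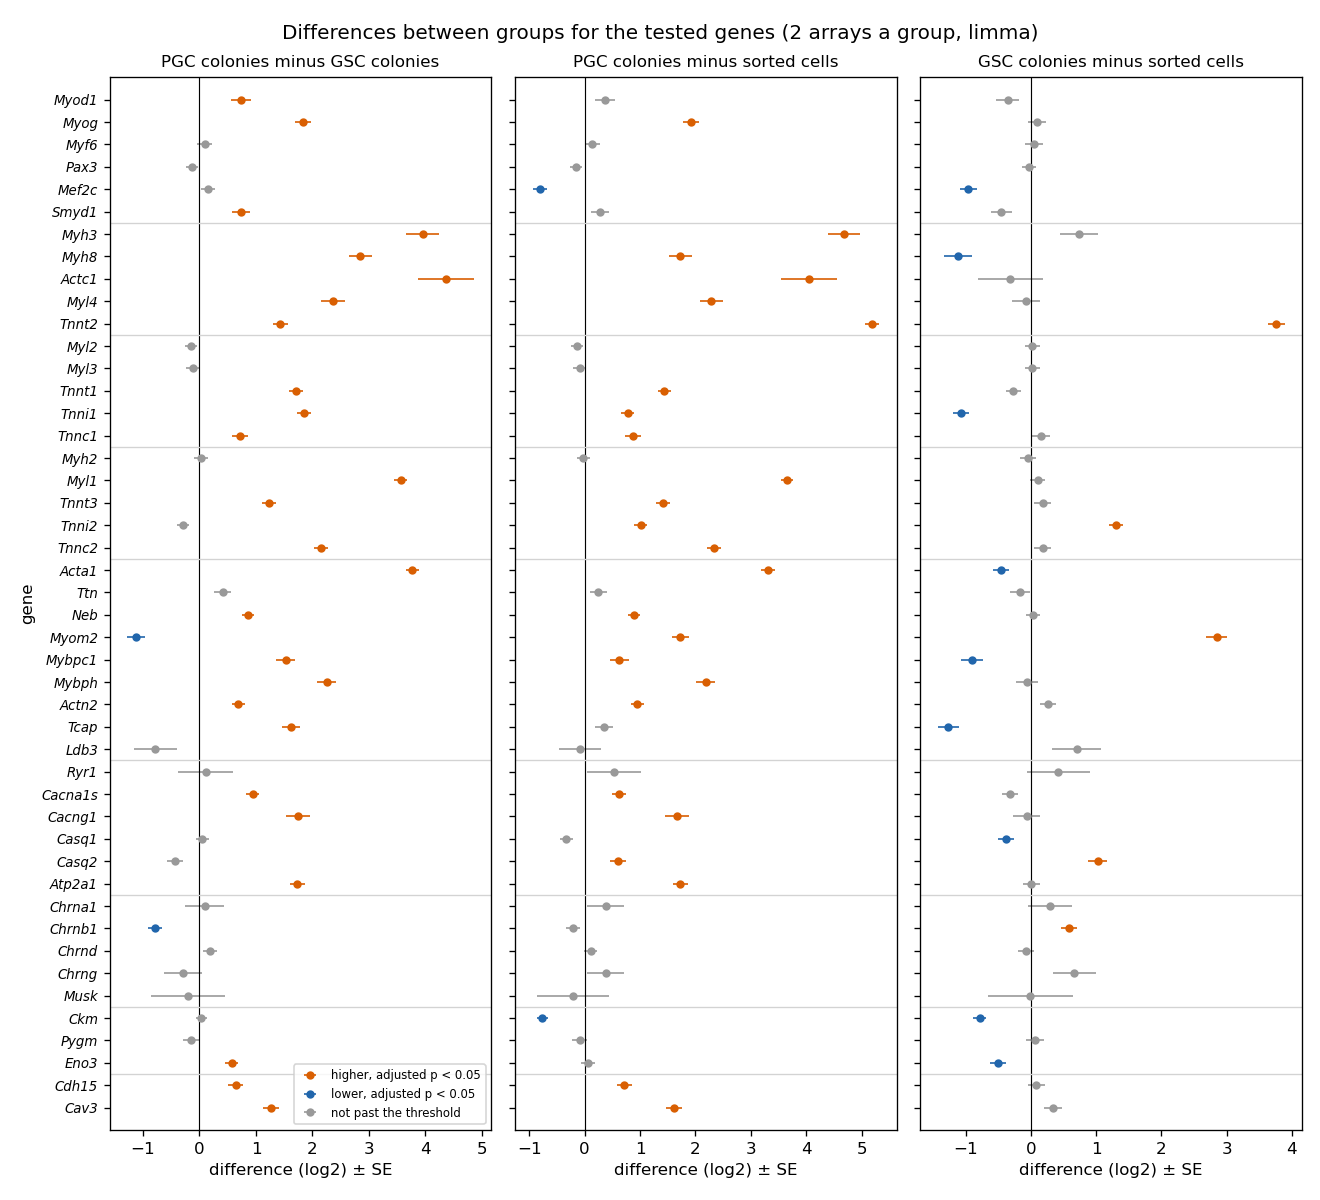
Difference between groups (log2, points, with bars of ± SE) for the 46 tested genes in the 3 comparisons, ordered by role, in orange where higher and blue where lower at an adjusted p under 0.05. The first and middle panels hold 26 and 25 orange points, mostly in the sarcomere rows, and the right panel shows 5 orange and 9 blue points.

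The machinery of excitation and calcium release was partly higher in PGC colonies, with 3 of 6 genes higher than in GSC colonies and 4 of 6 than in sorted cells, none lower, where 7.08% and 22.8% of all genes were higher. Cacng1 and Atp2a1 entered the test through the PGC colony arrays alone. Atp2a1, the calcium pump of fast fibres, measured 8.81 and 9.11 in PGC colonies and 7.19 to 7.26 on the other 4 arrays, at least 2.2-fold higher than in each testicular group (limma adjusted p = 0.00056 and 0.00012). Cacng1, a subunit of the voltage sensor, read 8.56 and 9.13 against 6.94 to 7.26, at least 2.03-fold higher in both comparisons (adjusted p = 0.0034 and 0.001). Cacna1s, the channel of the same complex, read 8.38 and 8.56 in PGC colonies, 7.52 and 7.54 in GSC colonies and 7.90 and 7.79 in sorted cells. It was at least 1.57-fold higher than in GSC colonies and 0.62 ± 0.12 above sorted cells (adjusted p = 0.0035 and 0.0053). The sorted array at 7.79 was under the level, so the latter difference is uncertain in size. For these 3 genes the PGC arrays lay above all others.

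The store and release proteins did not share this order. Ryr1, the release channel, read 7.84 and 9.48 on the GSC colony arrays, a gap wider than any difference between groups, and 8.65 and 8.89 in PGC colonies and 8.07 and 8.40 in sorted cells. Casq1, the calcium store protein of fast fibres, stayed between 7.66 and 8.15 on all arrays. Both GSC colony arrays were under the level, sorted cells were at least 1.21-fold higher (limma adjusted p = 0.039), and that call was lost in 7 of 15 alternatives. Casq2, the form of slow and cardiac muscle, read 11.95 and 11.78 in GSC colonies, 11.58 and 11.30 in PGC colonies and 10.89 and 10.79 in sorted cells. Both kinds of colony were above sorted cells, by 1.02 ± 0.14 and 0.60 ± 0.14 (adjusted p = 0.0013 and 0.013), and the -0.43 ± 0.14 between them did not pass (adjusted p = 0.096). The call for PGC colonies against sorted cells was lost in 1 of 17 alternatives.

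Of the 5 neuromuscular junction genes, none was higher in PGC colonies in either comparison by limma, also at an unadjusted p under 0.05, and Chrnb1 was lower than in GSC colonies. With 7.08% and 22.8% of all genes higher, a count of 0 among 5 does not set them apart from other genes. Chrnb1, the β subunit of the acetylcholine receptor, measured 10.42 and 10.63 in PGC colonies, 11.35 and 11.28 in GSC colonies and 10.66 and 10.81 in sorted cells. GSC colonies stood alone at the top, with -0.79 ± 0.12 for PGC against GSC colonies (adjusted p = 0.0093) and 0.58 ± 0.12 for GSC colonies against sorted cells (adjusted p = 0.0095, lost in 1 of 17 alternatives). The -0.21 ± 0.12 between PGC colonies and sorted cells did not pass (adjusted p = 0.23).

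Chrna1, the receptor's ligand-binding subunit, read 9.04 and 8.82 in PGC colonies, 9.26 and 8.43 in GSC colonies and 8.17 and 8.94 in sorted cells. All groups overlapped. Chrng, the subunit of the fetal receptor, read 9.35 and 8.59, 9.41 and 9.11, and 8.97 and 8.22 in the same order, with -0.29 ± 0.33 between PGC and GSC colonies (limma adjusted p = 0.61). Its chromosomal neighbour Chrnd, the δ subunit, read 8.84 and 8.89, 8.76 and 8.57, and 8.68 and 8.82, with 0.19 ± 0.12 (adjusted p = 0.34). Musk, the kinase that clusters the receptors, read 7.97 and 9.32 on the PGC arrays and 9.68 and 8.02 on the GSC arrays, over 2-fold apart within each group. Its difference of -0.20 ± 0.65 between them was smaller than its SE.

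Of the energy supply genes, 1 of 3 was higher in PGC than in GSC colonies, and both surface genes were higher in PGC colonies in both comparisons. Cav3, a surface gene, entered the test through the PGC colony arrays alone. Of all genes, 7.08% were higher than in GSC colonies and 22.8% than in sorted cells. Ckm, the muscle creatine kinase that adult fibres hold in large amounts, was under the level in both kinds of colony, at 7.25 to 7.33, and read 8.08 and 8.02 in sorted cells, at least 1.17-fold higher there than in PGC colonies (limma adjusted p = 0.0014). Eno3, muscle enolase, read 10.27 and 10.34 in PGC colonies, 10.32 and 10.17 in sorted cells and 9.83 and 9.64 in GSC colonies, and its 0.57 ± 0.12 between the colonies (adjusted p = 0.029) was lost in 7 of 17 alternatives. Pygm, muscle glycogen phosphorylase, spanned 11.26 to 11.64 with no call. The overlap of PGC colonies and sorted cells for Eno3 and Pygm set these genes apart in order from the troponins.

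Cdh15, the cadherin of muscle precursors, read 8.88 and 8.60 in PGC colonies, 8.07 and 8.12 in GSC colonies and 8.03 and 8.00 in sorted cells, with 0.64 ± 0.13 (limma adjusted p = 0.022, lost in 4 of 16 alternatives) and 0.72 ± 0.13 (adjusted p = 0.0044). Cav3, the caveolin of muscle fibres, was under the level on all 4 testicular arrays, at 6.61 to 7.11, and read 8.43 and 8.16 in PGC colonies, at least 1.39-fold higher in both comparisons (adjusted p = 0.0023 and 0.00019). Both genes had every PGC value above the rest.

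Between GSC colonies and sorted cells the members moved in both directions. Tnnt2, Tnni2, Myom2, Casq2 and Chrnb1 were higher in GSC colonies, and Mef2c, Myh8, Tnni1, Acta1, Mybpc1, Tcap, Casq1, Ckm and Eno3 were lower. The median difference was 0.01, and that of all genes -0.01. Without normalization between arrays, where 64.1% of all genes were called and their median was 0.47, 20 members were higher and 6 lower. The split by direction therefore depends on the scaling in this comparison.

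The count of members at or above the level was 35 and 34 of 52 in GSC colonies, 38 and 37 in sorted cells and 45 on both PGC colony arrays, where all arrays had 76.9% to 77.1% of all genes at or above it. Within a group, Actc1, Ryr1 and Musk were over 2-fold apart between the GSC colony arrays, Ldb3 between the sorted arrays and Musk between the PGC colony arrays. For all tested genes those shares were 3.8%, 1.71% and 0.919%.

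**Figure D4:**
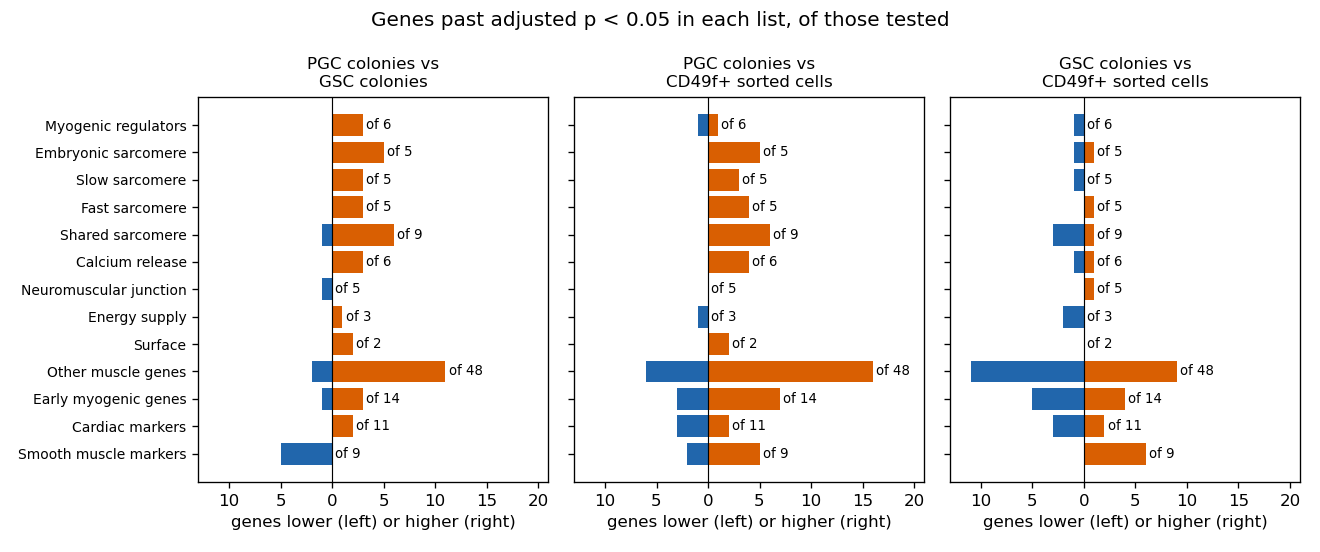
Number of genes past an adjusted p of 0.05 in each list (higher to the right in orange, lower to the left in blue), with the number tested beside each bar, for the 3 comparisons. In PGC against GSC colonies all 5 embryonic sarcomere genes are higher, 11 of 48 other muscle genes are higher and 2 lower, and smooth muscle markers have 5 lower and none higher.

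Other genes of striated muscle were measured from a list of 62: the array carried 60, and 48 passed the filter. Between PGC and GSC colonies 11 were higher and 2 lower, or 27.1% beside the 15.1% of all genes, with a median of 0.14. Of the 11, Csrp3, Art1, Hspb3 and Lmod3 were under the level on all 4 testicular arrays and entered the test through the PGC colony arrays alone. Against sorted cells 16 were higher and 6 lower, or 45.8% beside the 46% of all genes. Csrp3, a muscle LIM protein that supports differentiation, read 10.01 and 9.68 in PGC colonies and 7.02 to 7.43 elsewhere, at least 4.08-fold higher in both comparisons (limma adjusted p = 0.0002 and 2.5e-05). Art1, a muscle ADP-ribosyltransferase, and Hspb3, a small heat shock protein, were at least 1.73-fold and 1.36-fold higher than in GSC colonies. The 2 lower genes were Pdlim3, a Z-disc LIM protein, at -2.62 ± 0.11, and Trim63, a ubiquitin ligase of muscle atrophy, at -2.48 ± 0.15. Both were highest in GSC colonies, where Trim63 read 12.81 and 12.63, against 10.08 and 10.40 in PGC colonies and 8.22 and 8.26 in sorted cells.

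The fusion genes Mymk and Mymx, which join myoblasts into myotubes and were singled out after their values were seen, did not pass. Mymk, listed under an older symbol, read 9.25 and 9.11 in PGC colonies against 8.98 and 8.82 in GSC colonies (0.27 ± 0.14, limma adjusted p = 0.26). Mymx gave -0.25 ± 0.24 (adjusted p = 0.54).

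Of the genes that act before or beside the myogenic factors, 17 of 20 were on the array and 14 were tested. Between PGC and GSC colonies 3 were higher (Meox2, Eya1 and Tbx1), 1 lower (Tcf21) and 10 not called, with a median of -0.15. That is 28.6% called beside 15.1% of all genes. Against sorted cells 7 were higher and 3 lower, or 71.4% beside 46% of all genes. Tbx1 read 7.94 and 7.70 in PGC colonies, with 1 array under the level, and 6.68 and 6.73 in GSC colonies. It was highest in sorted cells, at 8.23 and 8.28. Meox2, a homeobox factor of limb muscle and mesenchyme, read 13.16 and 13.18 in PGC colonies, 10.05 on both sorted arrays and 7.91 and 7.55 in GSC colonies. Eya1, a transcriptional cofactor, read 11.55 and 10.94 in PGC colonies against 9.02 and 8.99 in GSC colonies and 10.35 and 10.07 in sorted cells, or 2.24 ± 0.21 above GSC colonies (limma adjusted p = 0.0013). Lbx1, a factor of migrating limb precursors, stayed under the level on all 6 arrays, at 6.27 to 6.78.

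Markers of other cells moved in the same comparison. Of 11 tested cardiac markers, Tnni3 and Sln were higher in PGC than in GSC colonies and none was lower, or 18.2% beside the 15.1% of all genes, and Sln entered the test through the PGC colony arrays alone. The summed linear level of all 16 on the array was 12400 and 11100 in PGC colonies, 11800 and 12600 in GSC colonies, and 46000 and 46300 in sorted cells, where Tnni3 read 14.92 and 15.02 and Myh6 10.74 and 10.61. The cardiac genes Myl7, Ryr2 and Pln were under the level on every array. Of 9 tested smooth muscle markers, none was higher and 5 were lower in PGC than in GSC colonies, beside 7.08% and 7.98% of all genes. The summed level of all 11 on the array was 98900 and 83400 in PGC colonies against 153000 and 158000 in GSC colonies, and 35500 and 31700 in sorted cells. Myh11, smooth muscle myosin, differed by -3.65 ± 0.13 and Des, the desmin of all muscle, by -3.32 ± 0.15. Summed levels of 8 fibroblast markers were 242000 and 228000 in PGC colonies, 489000 and 504000 in GSC colonies, and 24700 and 21700 in sorted cells. The part of these cells in the members' differences was not tested.

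The germ cell label was set against 10 germ cell markers, of which 7 were tested. None was higher and 4 were lower in PGC than in GSC colonies, beside 7.08% and 7.98% of all genes. The summed level was 4350 and 4130 in PGC colonies, 7240 and 6910 in GSC colonies and 6630 and 6820 in sorted cells. Dazl, an RNA-binding protein of germ cells, was under the level on both PGC colony arrays, at 7.42 and 7.51, and at least 4.87-fold lower than in GSC colonies (limma adjusted p = 0.00034). Ddx4, a germ cell helicase, read 9.96 and 9.72 in PGC colonies, and its -0.41 ± 0.13 did not pass (adjusted p = 0.096). Itga6, which encodes CD49f, was 0.58 ± 0.12 higher in PGC than in GSC colonies (adjusted p = 0.023) and differed by -0.37 ± 0.12 between GSC colonies and sorted cells (adjusted p = 0.042), which turned to 0.20 without normalization between arrays.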

How the data were processed

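RNA was labelled with Cy5 and hybridised to single-colour arrays, 1 sample per array, from 1 µg of total RNA with an integrity number of at least 6, per the labels' protocols. The deposited table holds linear probe intensity, and some deposited intensity values lay below 0 on 4 of 6 arrays (52 to 474 probes). For the scanner, the background method and any scaling: not given in the sources used here. The median deposited intensity ranged from 393 to 606.

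Of 26423 probes, 21876 carried 1 gene symbol in the platform's annotation, 0 several and 4547 none. The probe with the highest mean stood for a gene, and 2424 of 19084 genes had several. Values were corrected with normexp (offset 50), transformed to log2 and quantile normalized between arrays, in R 4.3.3 with limma 3.58.1. A gene was tested if it reached an array's 30th percentile on at least 2 of the 6. All 6 arrays entered 1 fit of group means without a block, which left 3 residual degrees of freedom, and calls were made at an adjusted p under 0.05. The median SE of a difference was 0.134. Only the limma fit, for PGC against GSC colonies, was tried on simulated data, and the steps before it were not.

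All 53 members are named. From other lists, up to 3 genes with the largest rise and 3 with the largest fall past the threshold, with groups apart, and a few defining genes could be named. Lbx1, Myl7, Ryr2, Pln, Myh4, Mymk, Mymx, Lrp4, Agrn, Dok7 and Chrne were added after their values were seen. Members and lists were chosen with earlier results of these data known. Alternatives changed the background correction, scaling, filter, probe rule, fit and arrays. Promoter windows are RefSeq's on GRCm38.p6.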

Additional observations from a re-analysis of the deposited data

How the results depend on the processing

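Among the 26 members higher in PGC than in GSC colonies, no direction turned under the alternatives run. With the filter at the 50th percentile, 28 members were tested and 18 were called, 16 of them higher. Leaving out 1 array at a time gave 18 to 26 called and 16 to 24 higher, with fewest where a PGC colony array was left out and 41 members were tested. The lone array of a group is then assumed to vary like the other groups. Members lower in PGC colonies than in sorted cells numbered 1 without normalization between arrays, 1 with the stricter filter, and 1 to 3 with 1 array left out, with 1 where either sorted array was left out. Without normalization between arrays the median of all genes was 0.42 between PGC colonies and sorted cells and 0.47 between GSC colonies and sorted cells. In the latter, 26 members were called, 20 of them higher, beside 64.1% of all genes called. In PGC colonies against sorted cells, Myh2 then differed by 0.34 and Pygm by 0.42, and the mean of its probes gave Ldb3 0.41. Itga6 between GSC colonies and sorted cells was 0.20. The replicate numbers carry no stated batch. Deviations of same-numbered arrays correlated across genes at -0.342 for GSC colonies and sorted cells, -0.179 for both colonies and 0.326 for sorted cells and PGC colonies. These mixed signs do not settle whether arrays of different groups were paired. With the replicate number as a block, 26, 27 and 14 members were called in the 3 comparisons, beside 11%, 42.9% and 44% of all genes. Crossing the GSC colony numbers, a pairing chosen after seeing the data, gave 28, 28 and 15, beside 17.5%, 49.6% and 50.7% of all genes. Signal over background is known only through the 30th percentile, and 6 of 52 members stayed too dim to test.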

Other observations

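Some nerve and macrophage genes also differed between the colonies. Of 6 tested neural markers, 3 were higher in PGC than in GSC colonies and none was lower, beside 7.08% and 7.98% of all genes. Against sorted cells 2 were higher (Snap25 and Stmn2) and 2 lower (Elavl4 and Tubb3), beside 22.8% and 23.2% of all genes. Stmn2, a tubulin-binding protein of growing axons, read 9.56 and 9.70 in PGC colonies, 8.36 and 8.18 in GSC colonies and 8.25 and 8.15 in sorted cells, a difference of 1.36 ± 0.12 from GSC colonies (limma adjusted p = 0.00098). Sox10, a factor of neural crest and glia, was 0.69 ± 0.12 higher than in GSC colonies (adjusted p = 0.015). Its 0.13 ± 0.12 from sorted cells did not pass (adjusted p = 0.46). Of 7 macrophage markers, 6 were higher in PGC than in GSC colonies, and all 7 were lower than in sorted cells. Of all genes, 7.08% were higher in the former comparison and 23.2% lower in the latter. C1qa, a complement gene, read 9.70 and 9.84 in PGC colonies, 8.26 and 6.56 in GSC colonies and 15.07 and 15.10 in sorted cells.

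Lrp4, the agrin receptor that activates Musk, was singled out after its values were seen. It read 9.29 and 9.49 in PGC colonies, 8.19 and 8.09 in GSC colonies and 7.91 and 8.02 in sorted cells, or 1.25 ± 0.12 and 1.43 ± 0.12 higher (limma adjusted p = 0.0014 and 0.00018). Its partners Agrn and Dok7 did not pass in either comparison (adjusted p = 0.17 and 0.79 against GSC colonies). Meox1, a paralogue of Meox2, read 5.81 and 10.45 on the PGC colony arrays, and Chrne, the adult receptor subunit, read 11.62 and 8.27 on the GSC colony arrays. For both genes the arrays of a group were further apart than the groups.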
